A study of Mus musculus with 24 samples.

Results

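The genes followed here are 10 that encode secreted hormones, growth factors and binding proteins of the liver under stress or injury: Gdf15, Fgf21, Inhbe, Fst, Igf1, Igfbp1, Igfbp2, Angptl4, Tsku and Hgf. They were taken by symbol from the 24015 genes of the deposited count table, and all 10 were found and passed the filter on low counts in every comparison. Livers came from female B6C3F1 mice, bought at an age of 5 to 6 wk and kept for at least 7 days before use, which were given furan at 8 mg/kg body weight per day in corn oil by gavage for 21 days, or corn oil alone (control), and were killed 4 h after the last dose. Furan damages the liver after cytochrome P450 in hepatocytes turns it into a reactive dialdehyde. From each liver 1 piece was frozen, and others lay in formalin for 18 h or for 3 wk before embedding in paraffin (FFPE). Fresh-frozen livers gave 3 control (animals 02, 04 and 06) and 3 furan libraries (41, 43 and 44), and each FFPE time gave 4 control (02, 03, 04 and 06) and 4 furan libraries (41 to 44). Frozen RNA came from a larger piece with another kit, and the FFPE times differed in the number of sections, so fixation, kit and sections cannot be told apart.

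The liver adjusts whole-body growth and fuel use through proteins that it releases into the blood. GDF15 and FGF21 are hormones that rise when cells are stressed, and their genes are known targets of the integrated stress response, in which the transcription factor ATF4 turns on genes for amino acid supply and stress defence. IGF1 is the growth signal that hepatocytes make under growth hormone, and IGFBP1 and IGFBP2 bind it in blood. Activin E, whose subunit Inhbe encodes, and follistatin, which Fst encodes and which traps activins, belong to the TGF-beta family axis. ANGPTL4 inhibits lipoprotein lipase, tsukushi (Tsku) is a small leucine-rich glycoprotein secreted by hepatocytes, and HGF, made mainly by stellate and endothelial cells, drives hepatocyte growth through the receptor MET.

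Known response elements were searched on both strands in the 250 bases before the start of transcription, in RefSeq windows of build GRCm38.p6. Windows matched 8 of the 10 genes, not Fst and Angptl4. The letters TGATGNAA, the C/EBP-ATF response element that ATF4 binds, were in the windows of Fgf21 and Inhbe. They were in 3.45% of all 32851 windows and in 3.91% of the 27025 genes with a window. The letters CAAAACA, the core of the insulin response element that FOXO factors bind, were in the window of Igfbp1. They were in 5.56% of all windows and 6.38% of genes. The 3 promoters below, 5′ to 3′ on the gene's strand and ending at the base before the start, are shown for these elements, which are in capitals (in the first 2 the element lies on the opposite strand, so that it reads TTGCATCA).
Fgf21, chr7:45615491-45615740, minus strand: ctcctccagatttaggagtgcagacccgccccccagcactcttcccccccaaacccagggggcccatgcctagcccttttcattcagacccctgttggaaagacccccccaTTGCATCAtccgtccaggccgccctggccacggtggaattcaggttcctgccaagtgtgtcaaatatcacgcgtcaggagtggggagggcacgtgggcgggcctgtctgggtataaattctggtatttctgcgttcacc
Inhbe, chr10:127351849-127352098, minus strand: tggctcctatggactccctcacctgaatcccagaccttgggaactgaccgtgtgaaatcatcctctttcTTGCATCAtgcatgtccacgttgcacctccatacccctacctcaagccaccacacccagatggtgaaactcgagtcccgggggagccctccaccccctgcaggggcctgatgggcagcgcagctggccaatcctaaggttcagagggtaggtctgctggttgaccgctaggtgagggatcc
Igfbp1, chr11:7197537-7197786, plus strand: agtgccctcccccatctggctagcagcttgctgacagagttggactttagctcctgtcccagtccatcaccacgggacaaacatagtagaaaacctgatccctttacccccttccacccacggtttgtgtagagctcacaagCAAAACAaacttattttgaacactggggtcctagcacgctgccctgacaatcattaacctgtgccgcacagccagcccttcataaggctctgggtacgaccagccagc
The element starts 139 bases before the start of Fgf21, 181 before that of Inhbe and 108 before that of Igfbp1. The AP-1 letters TGANTCA, in 6.75% of all windows and 7.82% of genes, were in windows of Igf1 and Igfbp2. The E-box CACGTG, in 6.02% of windows and 6.86% of genes, was in windows of Gdf15, Fgf21 and Igfbp2. The STAT5 letters TTCNNNGAA and the direct repeat bound by PPARs (PPAR element) were in none of the 8 genes' windows. They were in 7.02% and 0.0335% of all windows, and in 8.13% and 0.0407% of genes. A match of letters is a description and not a measured site.

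Fresh-frozen libraries held 33101755 to 58048387 counts, those of FFPE 18 h tissue 16269854 to 22494012 and those of FFPE 3 wk tissue 3666173 to 11780691. The ribosomal RNA precursor gene Rn45s took 0.129% to 0.520% of their counts in that order, then 6.42% to 37.3%, and 4.85% to 13.2%. The 37.3% was that of control 06, and the next highest FFPE 18 h library had 16.5%. All 11 hepatocyte markers in the table were detected in every group, and their summed level in fresh-frozen livers was 149385 to 158315 CPM (counts scaled to the size of the library) in control and 151629 to 161099 in furan animals. Of 12 sinusoidal endothelial markers, 5 fell with furan in fresh-frozen livers, with sums of 587 to 617 CPM in control and 430 to 515 in furan animals. None of the 10 stellate cell or 12 macrophage markers passed there. The macrophage sum was high in control 04, at 835 CPM in the frozen piece and 1069 and 1490 CPM after 18 h and 3 wk of fixation. Skeletal muscle markers summed to between 0.397 and 0.650 CPM in fresh-frozen livers, and to 526, 177 and 807 in the FFPE 3 wk libraries of control 03, control 06 and furan 42. The FFPE 18 h library of furan 44 had 39.6 CPM of them. The part of these markers and of Rn45s in the results below was not tested, and in tissue fewer cells of a type and less RNA per cell cannot be told apart.

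Levels below are CPM, scaled by the trimmed mean of M values (TMM) within each kind of piece, so that a level in 1 kind of piece is not directly comparable with that in another. A fold change is a fitted log2 value of furan against control ± its standard error (SE), and a gene rose or fell only where the adjusted p of edgeR's quasi-likelihood test, Benjamini-Hochberg over all genes tested, was under 0.05. In fresh-frozen livers 6 of the 10 genes rose (Gdf15, Fgf21, Inhbe, Fst, Igfbp1 and Tsku), 1 fell (Igfbp2) and 3 did not pass (Igf1, Angptl4 and Hgf), where 15.7% of the 13794 genes tested were called (8.21% rose and 7.47% fell). In FFPE 18 h livers 5 rose and 1 fell, the same genes without Inhbe, where 8.39% of 12832 genes were called (3.92% rose and 4.47% fell). In FFPE 3 wk livers 1 rose (Gdf15) and none fell, where 0.821% of 12064 genes were called (0.298% rose and 0.522% fell). The median log2 fold change of the 10 genes was 1.23, 0.99 and 1.69 in the 3 kinds of piece, beside -0.01, -0.01 and 0.02 over all genes tested. The FFPE 3 wk median includes Hgf at 2.87 ± 1.66, where every control but animal 02 had 0 counts. The medians therefore do not show a stronger response after 3 wk of fixation.

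**Figure D1:**
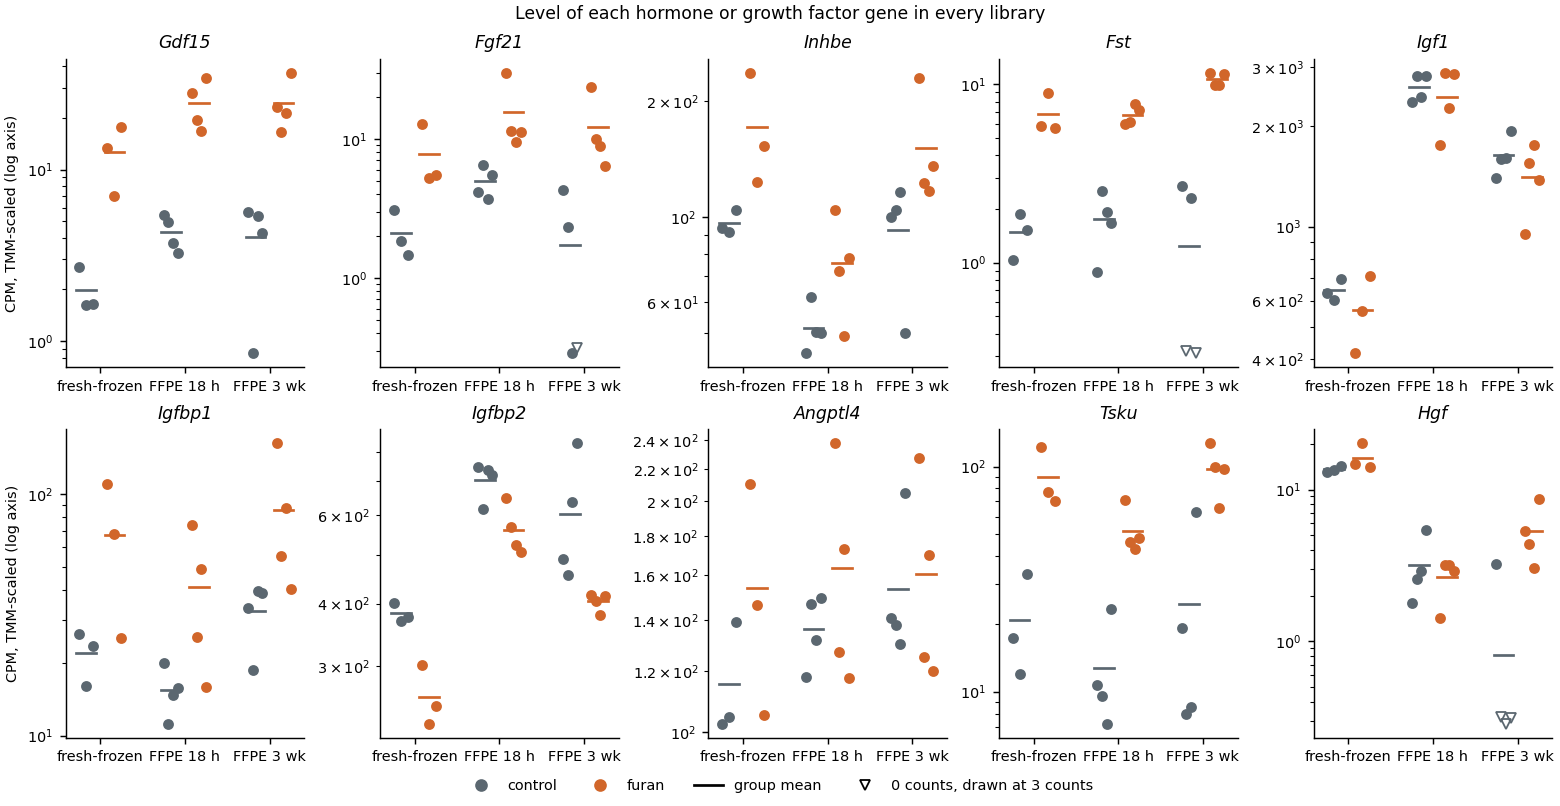
Level of each of the 10 genes in every library, in CPM on a log axis, by kind of piece and treatment; each point is 1 library, bars are group means, and a library with 0 counts is drawn at the level that 3 counts would give. Furan points of Gdf15, Fgf21, Fst and Tsku lie above the control points in all 3 kinds of piece, while those of Igf1, Angptl4 and Hgf mix with them in fresh-frozen and FFPE 18 h livers.

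Counted by library, the furan range lay above the control range for 5 of the 10 genes in fresh-frozen livers (Gdf15, Fgf21, Inhbe, Fst and Tsku) and below it for Igfbp2. Among all genes tested there, 19.0% lay above and 18.4% below, 37.4% in all. After 18 h of fixation 4 lay above and 0 below, beside 7.96% and 7.78% of all genes, 15.7% in all. After 3 wk of fixation 6 lay above (Gdf15, Fgf21, Inhbe, Fst, Igfbp1 and Tsku) and 1 below (Igfbp2), beside 4.56% and 4.25%, 8.81% in all. For Fgf21, Inhbe, Igfbp1 and Tsku the nearest furan and control libraries had overlapping 95% intervals for counting error there. Their nearest values were 6.42 and 4.30 CPM (Fgf21), 116.6 and 116.5 (Inhbe), 40.3 and 39.5 (Igfbp1), and 65.3 and 62.8 (Tsku).

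Gdf15, the hormone that acts on the brainstem receptor GFRAL to lower food intake, had the largest rise of the 10 in fresh-frozen livers. Control animals 02, 04 and 06 had 2.71, 1.61 and 1.65 CPM (116, 84 and 84 counts), and furan animals 41, 43 and 44 had 13.4, 6.96 and 17.6 CPM. Every furan library was above every control library. The mean went from 1.99 CPM ± 0.622 (SD, n = 3) to 12.6 ± 5.35 (n = 3), a rise of 2.67 ± 0.35 (adjusted p = 0.00405). After 18 h of fixation the controls had 5.45, 4.92, 3.75 and 3.27 CPM (animals 02, 03, 04 and 06) and the furan animals 28.0, 19.5, 16.7 and 34.0 CPM (41 to 44), a rise of 2.48 ± 0.23 (adjusted p = 5.08e-05). Again the groups were apart, and furan 44 was the highest in both kinds of piece. After 3 wk of fixation the controls had 5.65, 0.851, 5.36 and 4.25 CPM and the furan animals 23.1, 16.5, 21.2 and 36.5 CPM, a rise of 2.61 ± 0.55 (adjusted p = 0.0405). The lowest control value, that of animal 03, rests on 8 counts, with a 95% Wilson interval of 0.431 to 1.68 CPM for counting error only. The FFPE 3 wk call was kept without control 06 (adjusted p = 0.0243) and was lost without any of the other 7 libraries (adjusted p 0.0508 to 0.246), while the fresh-frozen and FFPE 18 h calls were kept without each library in turn. Gfral itself had 0 counts in all 22 libraries.

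Fgf21, the fasting and stress hormone that acts through beta-klotho and FGF receptors, rose in fresh-frozen and FFPE 18 h livers. Fresh-frozen controls had 3.06, 1.84 and 1.46 CPM and furan animals 12.8 (41), 5.21 (43) and 5.47 (44), with means of 2.12 ± 0.837 (SD, n = 3) and 7.84 ± 4.33 (n = 3). All 3 furan livers were above the controls, and animal 41 was the highest. The rise was 1.91 ± 0.41 (adjusted p = 0.0197), and without control 04 it missed the threshold (adjusted p = 0.0587). The FFPE 18 h controls had 4.17, 6.49, 3.69 and 5.48 CPM and the furan animals 29.8, 11.5, 9.53 and 11.3, a rise of 1.64 ± 0.34 (adjusted p = 0.0100) that was kept without each library. The FFPE 3 wk controls had 4.30, 2.34, 0.287 and 0 CPM (16, 22, 3 and 0 counts) and the furan animals 23.6, 10.01, 8.85 and 6.42 CPM. The groups did not overlap there, and the fold change of 2.88 ± 1.08 did not pass (adjusted p = 0.295). The control library at 0 allows up to 0.311 CPM by a floor of 3 counts.

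Inhbe, which encodes the subunit of activin E and is expressed mainly in the liver, was at much higher levels and rose by less. Fresh-frozen controls had 93.5, 91.1 and 104 CPM and furan animals 237 (41), 124 (43) and 153 (44), with means of 96.4 ± 7.10 (SD, n = 3) and 171 ± 58.8 (n = 3). All furan livers were above all controls, and animal 41 was the highest. The rise was 0.83 ± 0.21 (adjusted p = 0.0334), and it missed the threshold without control 02, control 04 or furan 44 (adjusted p up to 0.0886). Without furan 41 it was 0.54 and passed. In FFPE 18 h livers the control range of 44.2 to 61.7 CPM overlapped the furan values of 104, 72.1, 49.1 and 78.4, and the fold change of 0.56 ± 0.18 did not pass (adjusted p = 0.0775). Without furan 43 it did (adjusted p = 0.0144). After 3 wk of fixation the controls had 100, 105, 116 and 49.96 CPM and the furan animals 230, 122, 117 and 135, and the fold change of 0.71 ± 0.26 did not pass (adjusted p = 0.288).

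Fst, which encodes follistatin, rose in fresh-frozen and FFPE 18 h livers. Fresh-frozen controls had 1.03, 1.88 and 1.52 CPM and furan animals 5.81, 8.91 and 5.70, with means of 1.48 ± 0.429 (SD, n = 3) and 6.81 ± 1.82 (n = 3). The furan livers were all above the controls, with animal 43 the highest, and the rise was 2.19 ± 0.25 (adjusted p = 0.00266). After 18 h of fixation the controls had 0.890, 2.51, 1.93 and 1.68 CPM and the furan animals 5.99, 6.11, 7.74 and 7.18, a rise of 1.94 ± 0.27 (adjusted p = 0.000992). Both calls were kept without each library in turn. The FFPE 3 wk controls had 2.69, 0, 2.297 and 0 CPM (10, 0, 24 and 0 counts) and the furan animals 11.5, 9.87, 9.87 and 11.4, and the fold change of 3.14 ± 1.19 did not pass (adjusted p = 0.304).

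Igf1, the growth factor itself, did not pass in any kind of piece. Fresh-frozen controls had 634, 602 and 697 CPM and furan animals 418 (41), 557 (43) and 711 (44), with means of 644 ± 48.0 (SD, n = 3) and 562 ± 147 (n = 3). Animals 41 and 43 were below the controls and animal 44 above them. The fold change was -0.20 ± 0.17 (95% interval -0.60 to 0.20, adjusted p = 0.479). The FFPE 18 h controls had 2356, 2819, 2449 and 2826 CPM and the furan animals 1751, 2885, 2266 and 2874, and the fold change was -0.10 ± 0.14 (adjusted p = 0.730). After 3 wk of fixation the controls had 1403, 1598, 1605 and 1935 CPM and the furan animals 952, 1549, 1762 and 1376, and the fold change was -0.21 ± 0.16 (adjusted p = 0.721). Furan animal 41 had the lowest Igf1 of the furan animals in all 3 kinds of piece.

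Igfbp1, the binding protein that fasting and stress raise and insulin lowers, rose in fresh-frozen and FFPE 18 h livers with a wide spread among furan animals. Fresh-frozen controls had 26.2, 16.1 and 23.5 CPM and furan animals 110 (41), 68.0 (43) and 25.3 (44). Animal 44 lay inside the control range, so the groups overlapped, and the means were 21.9 ± 5.27 (SD, n = 3) and 67.7 ± 42.3 (n = 3). The rise of 1.63 ± 0.45 (adjusted p = 0.0445) was lost when any library but furan 44 was left out (adjusted p up to 0.122). After 18 h of fixation the controls had 20.0, 11.2, 14.7 and 15.7 CPM and the furan animals 74.2, 25.5, 49.1 and 15.9, with animal 44 again inside the control range. The rise of 1.42 ± 0.37 (adjusted p = 0.0307) was lost without control 03, control 04, furan 41 or furan 43 (adjusted p up to 0.0936). The FFPE 3 wk controls had 33.6, 18.7, 39.5 and 38.9 CPM and the furan animals 162, 55.4, 87.0 and 40.3, and the fold change of 1.397 ± 0.370 did not pass (adjusted p = 0.103).

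Igfbp2, the most abundant IGF-binding protein of this set, fell. Fresh-frozen controls had 402, 370 and 376 CPM and furan animals 303, 231 and 250, with means of 383 ± 17.1 (SD, n = 3) and 261 ± 37.1 (n = 3). Every furan liver was below every control liver. The change was -0.55 ± 0.11 (adjusted p = 0.0145), and it missed the threshold without furan 43 or furan 44 (adjusted p up to 0.0573). The FFPE 18 h controls had 749, 617, 737 and 719 CPM and the furan animals 648, 569, 522 and 506, and it fell by 0.33 on the log2 scale (SE 0.09, adjusted p = 0.0450). That call was lost without control 02, control 04, furan 42, furan 43 or furan 44 (adjusted p up to 0.144). After 3 wk of fixation the controls had 491, 455, 637 and 833 CPM and the furan animals 416, 406, 380 and 415, and the change of -0.58 ± 0.16 did not pass (adjusted p = 0.129).

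Angptl4 did not pass in any kind of piece. Fresh-frozen controls had 103, 105 and 139 CPM and furan animals 210 (41), 146 (43) and 105 (44). Animals 41 and 43 were above the controls and animal 44 lay within them. The fold change was 0.42 ± 0.23 (95% interval -0.12 to 0.95, adjusted p = 0.261) in fresh-frozen, 0.26 ± 0.18 (adjusted p = 0.416) in FFPE 18 h and 0.06 ± 0.21 (adjusted p = 0.975) in FFPE 3 wk livers. Furan animals 41 to 44 had 237, 127, 173 and 118 CPM in FFPE 18 h livers, beside controls of 118, 147, 132 and 149, and 227, 125, 170 and 120 CPM in FFPE 3 wk livers, beside 141, 138, 130 and 205.

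Tsku, whose protein is released by hepatocytes, rose in fresh-frozen and FFPE 18 h livers. Fresh-frozen controls had 17.3, 12.03 and 33.3 CPM and furan animals 123, 77.2 and 70.2, with means of 20.9 ± 11.1 (SD, n = 3) and 90.1 ± 28.5 (n = 3). All furan livers were above all controls. The rise was 2.11 ± 0.37 (adjusted p = 0.0104). After 18 h of fixation the controls had 10.7, 9.54, 7.22 and 23.4 CPM and the furan animals 70.8, 46.1, 43.1 and 47.9, a rise of 2.07 ± 0.29 (adjusted p = 0.000905). Both calls were kept without each library in turn. The FFPE 3 wk controls had 19.1, 7.97, 8.52 and 62.8 CPM and the furan animals 127, 99.1, 65.3 and 98.0. The fold change of 1.98 ± 0.51 did not pass (adjusted p = 0.0959). Control 06 was the highest control in all 3 kinds of piece, and without it the FFPE 3 wk rise was 3.10 and passed (adjusted p = 0.000229).

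Hgf did not pass in any kind of piece. Fresh-frozen controls had 13.1, 13.5 and 14.2 CPM and furan animals 14.7, 20.1 and 14.0, and the fold change was 0.26 ± 0.14 (95% interval -0.06 to 0.57, adjusted p = 0.241). The FFPE 18 h controls had 1.78, 2.56, 2.92 and 5.39 CPM and the furan animals 1.42, 3.17, 3.16 and 2.91, and the fold change was -0.21 ± 0.36 (adjusted p = 0.778). In FFPE 3 wk livers control 02 had 12 counts, at 3.23 CPM, and the other 3 controls had 0, which allows up to 0.319 CPM by a floor of 3 counts. The furan animals had 5.30, 4.39, 3.04 and 8.70 CPM there, and the fold change of 2.87 ± 1.66 did not pass (adjusted p = 0.598). It rests on control 02: without that library all controls are at 0, and the fitted value of 8.58 (adjusted p = 0.0990) then depends on the prior count and is no bound. Hgf is a product of stellate and endothelial cells: stellate markers summed to 512 to 524 CPM in fresh-frozen control and 521 to 533 in furan livers, and endothelial markers are given above.

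**Figure D2:**
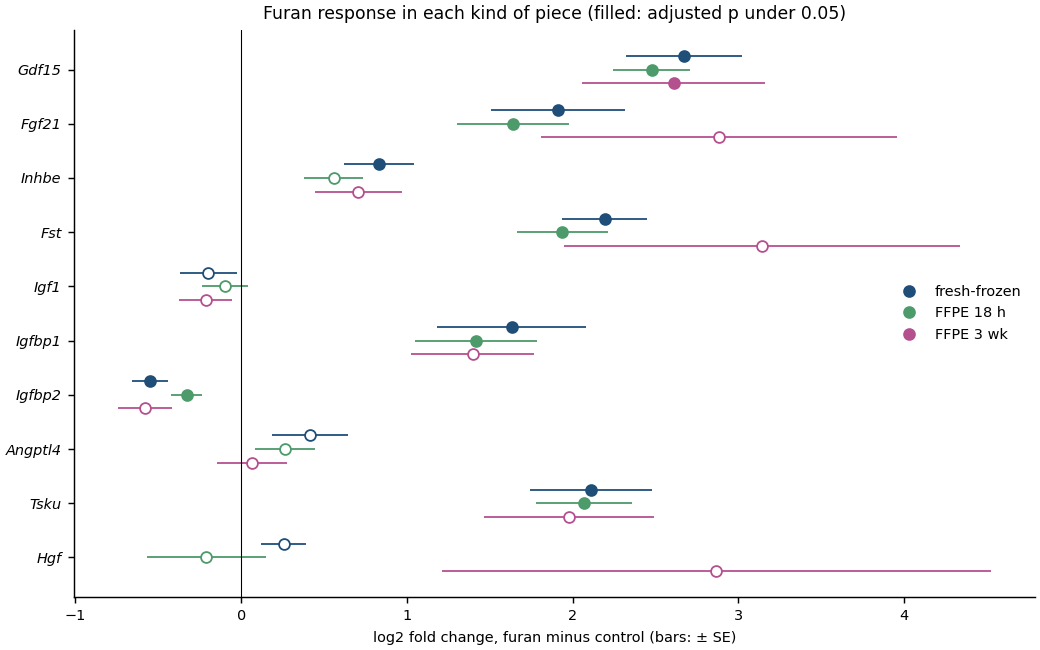
Fitted log2 fold change of furan against control for each of the 10 genes, with bars of ± 1 SE, coloured by kind of piece; filled points had an adjusted p under 0.05. Gdf15 is the gene filled in all 3 kinds of piece, and the FFPE 3 wk bars of Fgf21, Fst and Hgf are the widest.

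The furan response of the 10 genes was compared between kinds of piece as an interaction in 1 model. That model had no term for the animal, so pieces of 1 liver entered as if independent, and the SEs and intervals here are from it. No member differed between FFPE 18 h and fresh-frozen livers, and the differences ran from -0.42 ± 0.39 (Hgf) to 0.23 ± 0.15 (Igfbp2). For Gdf15 the difference was -0.18 ± 0.44, with a 95% interval of -1.11 to 0.75, and for Tsku -0.02 ± 0.51 with an interval of -1.11 to 1.07. These intervals include differences of more than 2-fold. FFPE 3 wk livers gave wider ones, such as Fgf21 at 1.06 ± 1.29 and Fst at 1.00 ± 1.34 against fresh-frozen livers. The largest was Hgf, at 3.09 ± 1.42 against fresh-frozen and 3.27 ± 1.53 against FFPE 18 h livers (unadjusted p = 0.0445 and 0.0454, adjusted p = 1.00 and 0.727). edgeR called 0 genes in each of these 3 contrasts (0% of 13739, 13156 and 13282 genes), with 455, 590 and 891 genes at an unadjusted p under 0.05. DESeq2 called 1, 19 and 67 genes.

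Levels can be set against each other only per length of transcript, as CPM per kilobase of exon in fresh-frozen control livers. Igfbp2 was the highest at 262 ± 11.7 (SD, n = 3), then Igf1 at 74.6 ± 5.56 and Angptl4 at 34.9 ± 6.18. Inhbe had 18.1 ± 1.33, with an exon length that exceeds the gene's RefSeq span and so an uncertain value, and Igfbp1 had 14.4 ± 3.46. Tsku had 7.46 ± 3.96, Hgf 3.92 ± 0.160, Fgf21 2.23 ± 0.880, Gdf15 1.08 ± 0.336 and Fst 0.521 ± 0.151. The neighbours Inhbe and Igfbp1, Igfbp1 and Tsku, Tsku and Hgf, and Fgf21 and Gdf15 did not differ beyond their SDs, and the other neighbours did. With furan, Gdf15 had 6.83 ± 2.89, Fgf21 8.25 ± 4.56 and Fst 2.40 ± 0.642, beside Tsku at 32.2 ± 10.2 and Igfbp2 at 179 ± 25.4.

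For 7 of the 10 genes the highest of furan livers 41, 43 and 44 was the same animal in every kind of piece. That held for 2439 of the 11870 genes tested in all 3 kinds (20.5%). Among animals 41, 43 and 44, which have all 3 kinds of piece, animal 41 was the highest in all 3 for 6 of the 10 genes (Fgf21, Inhbe, Igfbp1, Igfbp2, Angptl4 and Tsku), beside 993 of the 11870 genes tested in all 3 (8.37%). Animal 44 was the highest throughout for Gdf15 (6.44% of all genes), and animal 43 for none (5.75%). The pieces of 1 liver are not separate animals, so this is a description of 3 livers. Pdk4, a gene of fasting metabolism, was also highest in animal 41 in every kind of piece, at 61.0, 22.1 and 63.7 CPM. So was the stress response gene Ddit3, at 7.10, 15.8 and 16.1 CPM, while Atf3, Atf4, Trib3, Chac1 and Cdkn1a were not. In FFPE livers the lead of animal 41 in Ddit3 was slight. Animals 43 and 44 had 15.7 and 15.6 CPM after 18 h, and animal 43 had 15.2 CPM after 3 wk. For Igfbp2 after 3 wk, animals 41 and 44 were level within counting error, at 416 and 415 CPM. What sets animal 41 apart was not tested.

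**Figure D3:**
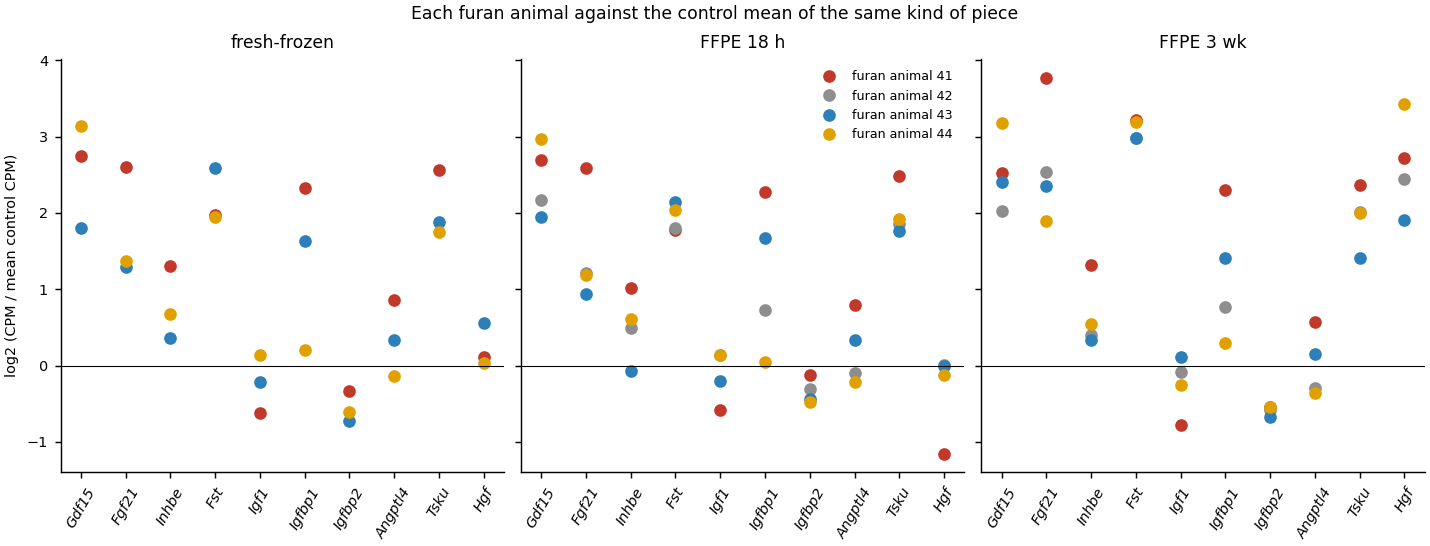
Level of each gene in each furan animal, as log2 of CPM over the mean CPM of the controls of the same kind of piece, 1 panel per kind of piece and 1 colour per animal. Animal 41 has the highest point for Fgf21, Inhbe, Igfbp1, Igfbp2, Angptl4 and Tsku in each panel among the animals with all 3 kinds of piece, and the lowest for Igf1.

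The genes around these hormones were described from 9 lists, and no list was tested as a set. Beside their counts, 15.7% of all genes tested were called in fresh-frozen livers (8.21% rose and 7.47% fell). The share was 8.39% in FFPE 18 h and 0.821% in FFPE 3 wk livers. In fresh-frozen livers the FGF21 and PPAR-alpha list and the activin, BMP and TGF-beta list were near the 15.7%. The lists of HGF and MET, angiopoietin-like proteins, other hepatokines, and the IGF and growth hormone axis were also near it. The calls in these lists are therefore no result about the lists. Of 25 tested genes of the integrated stress response and ATF4 targets, 6 rose and 2 fell in fresh-frozen livers, with a median of 0.31. Sesn2, a stress-induced inhibitor of growth signalling, rose by 1.52 ± 0.11, and the stress transcription factor Atf3 by 3.08 ± 0.32. Mthfd2, of mitochondrial folate metabolism, rose by 1.30 ± 0.18, Ddit4, an inhibitor of mTOR signalling, by 0.91 ± 0.13, and Atf4 itself by 0.52 ± 0.09. The ATF4 target Trib3, a pseudokinase, fell by 1.12 on the log2 scale (SE 0.27), and Chac1, which degrades glutathione, fell by 1.48 (SE 0.26). Ddit3, which encodes CHOP, had 0.35 ± 0.19 (adjusted p = 0.238), and Asns, for asparagine synthetase, had 0.91 ± 0.37 (adjusted p = 0.136). In FFPE 18 h livers 5 of 24 rose and 2 fell, with Atf3 at 1.98 ± 0.37, Atf4 at 0.51 ± 0.09 and Trib3 at -0.98 ± 0.25, and Ddit3 rose by 0.56 ± 0.16 (adjusted p = 0.0498). Asns rose there by 2.66 ± 0.50 (adjusted p = 0.00618), a value that rests on control libraries with only 2 to 7 counts each. The 7 FFPE 18 h calls became 4 without control 02, control 03, control 04 or furan 44. In FFPE 3 wk livers none of 23 passed (1 without control 04).

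Of 12 p53 targets, 11 rose in fresh-frozen and in FFPE 18 h livers and 6 in FFPE 3 wk livers, and none fell. Cdkn1a, the cell-cycle inhibitor p21, rose by 4.97 ± 0.10 in fresh-frozen livers, Zmat3, a zinc finger protein, by 1.74 ± 0.09 and Btg2, an antiproliferative gene, by 1.38 ± 0.08. Phlda3, which restrains AKT, rose by 4.21 ± 0.26. The 6 FFPE 3 wk calls became 3 without control 02, control 04 or furan 41 and 2 without furan 42, furan 43 or furan 44. Gdf15 is also a known p53 target.

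Of 19 genes of the IGF and growth hormone axis, none rose and 4 fell in fresh-frozen livers, with a median of -0.15. The growth hormone receptor Ghr fell by 0.56 (SE 0.09), the prolactin receptor Prlr by 0.55 (SE 0.10), the growth hormone target Socs2 by 1.16 (SE 0.24) and the insulin receptor Insr by 0.32 (SE 0.09), all on the log2 scale. Without furan 43 only 1 gene of this list was called. Igfals, which holds IGF1 in the blood, had -0.51 ± 0.19 (adjusted p = 0.108) and the IGF1 receptor Igf1r -0.16 ± 0.14 (adjusted p = 0.478). In FFPE 18 h livers 3 of 20 fell, Ghr by 0.32 (SE 0.06) among them, and none of 18 passed in FFPE 3 wk livers. The FFPE 18 h count was 1 without control 02, control 04, furan 41 or furan 44. Of 16 insulin, FOXO1 and fasting genes, 3 rose and 1 fell in fresh-frozen livers. Pdk4 rose by 1.82 ± 0.51, Irs1, an insulin receptor substrate, by 0.66 ± 0.16 and Trib1, a pseudokinase, by 0.55 ± 0.09, while Pck1, of gluconeogenesis, fell by 0.59 (SE 0.14). Foxo1 had -0.29 ± 0.14 (adjusted p = 0.201). The 4 calls became 1 without furan 41 or furan 43 and 2 without control 06. In FFPE 18 h livers 2 rose and 2 fell, a count of 4 that became 2 without control 04, furan 43 or furan 44, and in FFPE 3 wk livers none passed (2 without control 06).

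Of 19 genes of the FGF21 and PPAR-alpha axis, 1 rose and 2 fell in fresh-frozen livers, with a median of -0.11. The lipid droplet gene Cidec rose by 1.06 ± 0.22, and Fgf1 and the nuclear receptor partner Rxra fell by 0.40 (SE 0.09) and 0.31 (SE 0.08) on the log2 scale. The FGF21 co-receptor Klb had -0.05 ± 0.08 (adjusted p = 0.686), the receptor Fgfr4 0.00 ± 0.07 (adjusted p = 0.991) and Ppara -0.10 ± 0.14. Cidec rose by 1.28 ± 0.34 in FFPE 18 h livers and 2 fell, Acot1, an acyl-CoA thioesterase, by 1.01 (SE 0.23). None of 19 passed in FFPE 3 wk livers. The 3 fresh-frozen calls became 0 without control 02, and the 3 FFPE 18 h calls became 1 without control 03 or furan 43 and 6 without control 06.

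Of 15 genes of HGF activation and MET signalling, 1 rose and 2 fell in fresh-frozen livers, and 1 of 14 rose and 2 fell in FFPE 18 h livers. Hgfac, the protease that activates HGF, changed by -0.47 ± 0.13 in fresh-frozen and -0.52 ± 0.09 in FFPE 18 h livers, and the related factor Mst1 by -0.36 ± 0.08 and -0.31 ± 0.07. Met had -0.29 ± 0.09 (adjusted p = 0.0743) in fresh-frozen livers. The 3 fresh-frozen calls of the list became 1 without any 1 of the 3 controls. None of 12 passed in FFPE 3 wk livers (1 without control 06). Of 24 activin, BMP and TGF-beta genes, 1 rose and 2 fell in fresh-frozen livers: Id1, a BMP target, rose by 1.11 ± 0.30, and Bmp2 and Inhbc, the subunit of activin C, each fell by 0.44 on the log2 scale (SE 0.11 for both). Inhbc changed by -0.47 ± 0.10 in FFPE 18 h livers, where it alone of 24 passed. The activin receptor Acvr2a had 0.03 ± 0.07 (adjusted p = 0.824), and Fstl3 was too low to test. The 3 fresh-frozen calls became 0 without control 04 or furan 43 and 1 without control 02 or furan 41. The single FFPE 18 h call became 2 without control 02 or furan 42 and 3 without control 06. None of 23 passed in FFPE 3 wk livers (1 without control 02).

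Of 10 angiopoietin-like proteins and lipoprotein lipases (9 in FFPE 3 wk livers), the hepatic lipase Lipc fell and no other passed. It fell by 0.69 (SE 0.09) in fresh-frozen, 0.63 (SE 0.08) in FFPE 18 h and 0.79 (SE 0.16) in FFPE 3 wk livers on the log2 scale. The FFPE 3 wk count of 1 became 0 without control 02, control 03, control 04, furan 41, furan 42 or furan 44, and the FFPE 18 h count became 2 without control 04 or furan 43. Of 20 other hepatokines, 1 rose and 3 fell in fresh-frozen livers. Lcn2, an iron-siderophore binding protein of acute injury, rose by 0.88 ± 0.18, and the secreted Fetub, the protease Dpp4 and the acute phase protein Orm1 changed by -0.68 ± 0.07, -0.58 ± 0.08 and -0.55 ± 0.10. Lcn2 rose by 1.36 ± 0.28 in FFPE 18 h livers, and Fetub changed by -0.48 ± 0.07 there and by -0.70 ± 0.14 in FFPE 3 wk livers. That FFPE 3 wk call, the only one of the list, was lost without control 02, control 04 or any furan library, and the 4 fresh-frozen calls became 2 without furan 43.

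**Figure D4:**
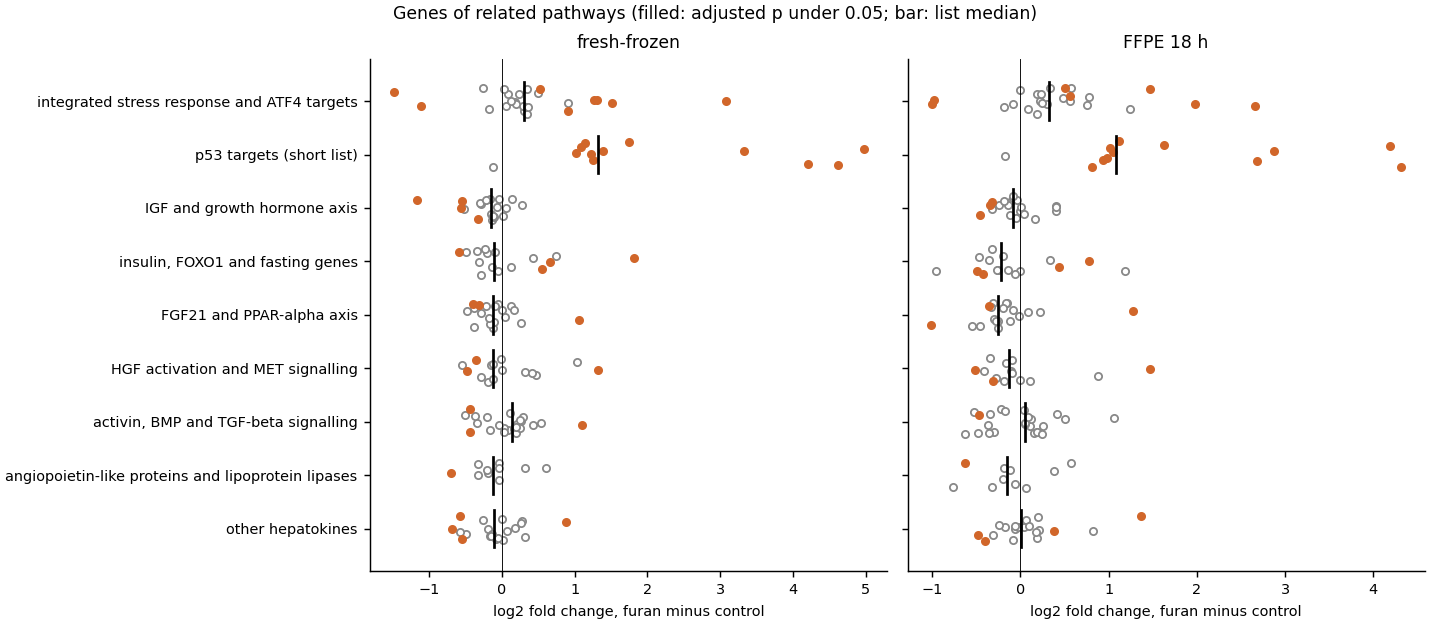
Fitted log2 fold change of furan against control for the tested genes of each list in fresh-frozen (left) and FFPE 18 h livers (right); each point is 1 gene, filled where its adjusted p was under 0.05, and the black bar is the list's median. In both panels 11 of the 12 p53 targets are filled and lie above 0, and the medians of the other lists lie between -0.25 and 0.32.

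Genes most like each called member were named by the Euclidean distance of the fitted log2 fold changes over the 3 furan comparisons. They came from the genes tested in all 3 and called in whichever of the fresh-frozen and FFPE 18 h comparisons called the member, with a mean of at least 5 CPM in fresh-frozen libraries. Igfbp1 was nearest to Sesn2 (distance 0.132) and Dusp6 (0.158) among 682 genes, and Inhbe to Brd2 (0.0854) and Dll1 (0.09998) among 1718. Igfbp2 was nearest to Gstm6 (0.0417) and Serping1 (0.0535), Tsku to Ugt2b37 (0.125) and Hmox1 (0.168), and Fst to Jun (0.605) and Mup20 (0.609). Gdf15 was nearest to Mup20 (0.446) and Tubb2a (0.598), and Fgf21 to Slc22a29 (0.403) and Tnfrsf12a (0.611). Mup20, Ugt2b37, Slc22a29 and Gstm6 belong to families of near copies whose reads the counting could split, so their values are uncertain. The distances take no account of the SEs of the fold changes. Those SEs were 0.45, 0.37 and 0.37 for Igfbp1 in the 3 comparisons, and 1.19 for Fst and 1.08 for Fgf21 in FFPE 3 wk livers. Which genes come nearest is therefore uncertain.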

How the data were processed

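Poly(A)-selected RNA of mouse liver was sequenced with an unstranded kit, and the authors deposited raw counts of reads per gene for 24015 gene symbols. Per the submitters' processing notes these came from CASAVA 1.8.2, STAR 2.3.0, featureCounts 1.4.4 and mouse build mm9. Of the table's columns, 22 matched a labelled sample by piece and animal number. The animal numbers of 2 more columns are in no label, so these were left out, and fresh-frozen animals 03 and 42 are not analysed here. Without a strand, reads of antisense partners cannot be told apart.

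Each comparison was fitted with edgeR 4.0.16 (R 4.3.3, limma 3.58.1) on the counts of its own groups: filterByExpr, TMM scaling and the quasi-likelihood F test, with Benjamini-Hochberg adjustment over all genes tested and a threshold of 0.05. The SE of a fold change was taken as its size divided by the root of F. Differences between kinds of piece were interaction terms, with no term for the animal in the main fit and a fit with the animal as a block as an alternative. DESeq2 1.42.0 and other settings were alternatives, and the fits were tested on simulated data. Replicates are separate animals. Pieces with 1 animal number come from 1 liver per the labels. As a check of this pairing, deviations from the group means were correlated across genes between pieces of 1 liver. The r was 0.414 to 0.532 between frozen and FFPE 18 h pieces (the highest for its own liver in 6 of 6), 0.0913 to 0.289 between frozen and FFPE 3 wk pieces (6 of 6), and 0.0126 to 0.297 between the FFPE times (7 of 8). Libraries of a group differed by more than sampling noise in every pair (chi-square at least 9.36 times its degrees of freedom). Intervals (95%) and floors (3 counts) cover counting error only, since reads carried no molecular identifiers.

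The members, the lists, the named genes and the alternatives were chosen with earlier results of these data known, and fits without the shallowest FFPE 3 wk libraries were added after seeing the data. From each list up to 4 genes with the smallest p in fresh-frozen livers, among those called there or in FFPE 18 h livers, were named, with the receptors, partners and regulators Gfral, Klb, Fgfr4, Igf1r, Igfals, Ghr, Met, Acvr2a, Hgfac, Atf4, Ddit3, Trib3, Asns, Ppara, Foxo1, Inhbc and Fstl3 whatever their values. Some genes that this rule selects are not reported here. Chac1 was named after its values were seen. Of the listed genes, 3 were not found in the table. Promoter windows are RefSeq's, of build GRCm38.p6, and exon lengths those of GENCODE M21 transcripts, matched by symbol; neither is of the build of the counts.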

Additional observations from a re-analysis of the deposited data

Results flagged for a closer look

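Of 40 groups of 4 FFPE libraries examined, 5 held a library whose gap to its nearest neighbour was large against the group's range by Dixon's criterion. Chance alone flags about 1 in 20 groups if values are normally distributed. These levels were not transformed, the genes share libraries, and a group with counts in only 1 library is always flagged. Whether 5 of 40 is more than chance would give can therefore not be judged. Fgf21 was at 29.8 CPM in furan animal 41 of the FFPE 18 h livers, beside 9.53 to 11.5 in the other 3. Inhbe was at 230 CPM in furan animal 41 of the FFPE 3 wk livers, beside 117 to 135. Angptl4 was at 205 CPM in control 06 of the FFPE 3 wk livers, beside 130 to 141. Hgf was at 1.42 CPM in furan animal 41 of the FFPE 18 h livers, beside 2.91 to 3.17, and at 3.23 CPM in control 02 of the FFPE 3 wk livers, where the other 3 controls had 0 counts. Animal 41 also had the highest Fgf21 and Inhbe of the furan animals in the fresh-frozen livers.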

How the results depend on the processing

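FFPE 3 wk livers had the fewest counts, a common dispersion of 0.336 beside 0.0150 in fresh-frozen and 0.0284 in FFPE 18 h livers, and control libraries with 0 counts of Fgf21, Fst or Hgf. A fold change that missed the threshold there is not shown to be absent. Only 3 animals per group have fresh-frozen libraries. For the fold changes of the 10 genes, direction and side of the threshold were kept in 120 of 140 refits of the fresh-frozen, 149 of 170 of the FFPE 18 h and 152 of 176 of the FFPE 3 wk comparison. In FFPE 3 wk livers 9 of the 10 genes had not passed in the main fit, so most kept refits there stayed not passed. The 9 refits that lost a call there were all of Gdf15, the only gene called. The lists' counts without single libraries stand beside them, and the model of all 6 groups called 0 to 2 genes of each list but the p53 targets in fresh-frozen livers. Where values below differ, the cause was not tested.

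Gdf15 kept its calls in fresh-frozen and FFPE 18 h livers under every alternative run. One model of all 6 groups, which shares 1 spread among pieces of unlike precision, called 1 of the 10 genes (138 of all genes) in fresh-frozen livers, 2 (225) after 18 h and 7 (2030) after 3 wk of fixation. After thinning to 3666173 counts per library, 754 genes were called in fresh-frozen livers. The 6 animals with all 3 pieces gave 594 genes in FFPE 18 h and 0 members and 19 genes in FFPE 3 wk livers. FFPE 3 wk livers gave 2 members and 353 genes with DESeq2, which gave no adjusted p for Gdf15, Fgf21, Fst and Hgf, 4 members and 194 genes without a filter on low counts, and 0 members and 12 genes without their 2 shallowest libraries (control 02 and furan 43), where Angptl4 was at -0.00089. Robust dispersions lost Inhbe and Igfbp1 in fresh-frozen and Igfbp1 in FFPE 18 h livers, and thinning lost Fgf21 in fresh-frozen livers. The 6 animals lost Igfbp1 (adjusted p 0.0793) and Igfbp2 (0.0608) in FFPE 18 h livers. DESeq2 and the fit without a filter gained Inhbe in FFPE 18 h livers.

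Leaving out 1 library at a time gave 4 to 6 members and 864 to 1620 genes in fresh-frozen livers, 4 to 6 members and 633 to 1285 genes in FFPE 18 h livers, and 0 to 2 members and 17 to 173 genes in FFPE 3 wk livers. Some fold changes that never passed then changed sign: in FFPE 18 h livers Hgf ran from -0.41 to 0.14 and Igf1 from -0.18 to 0.034, and in FFPE 3 wk livers Angptl4 ran from -0.16 to 0.24.

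The differences between kinds of piece, none of which passed, were near 0 for several members and changed sign. With the replicate block, that is with paired pieces of 1 animal, 2 genes and 0 members differed between FFPE 18 h and fresh-frozen livers, and 0 genes in the other contrasts, so it changed no call of a member. The block gave 0.032 for Gdf15 and 0.059 for Fst (FFPE 18 h against fresh-frozen), 0.12 for Inhbe and -0.055 for Igf1 (FFPE 3 wk against fresh-frozen), and 0.018 for Igfbp1 and 0.28 for Tsku (FFPE 3 wk against FFPE 18 h). For FFPE 18 h against fresh-frozen livers, Fgf21 was 0.36 after thinning, and in the 6 animals Fgf21 was 0.033, Fst 0.051 and Angptl4 0.00227. For FFPE 3 wk against fresh-frozen livers, Igf1 was -0.049 with DESeq2, -0.050 with RLE scaling, -0.035 without a filter, -0.035 with a filter at 1 CPM, -0.042 when all 6 groups shared a model, -0.0026 after thinning, -0.014 without Rn45s and -0.053 in the 6 animals, where Inhbe was 0.055. For FFPE 3 wk against FFPE 18 h livers, thinning gave -0.18 for Gdf15 and 0.076 for Igfbp1, and the 6 animals gave -0.25 for Gdf15. Over all genes, DESeq2 called 1, 19 and 67 genes in the 3 contrasts, and the model of all 6 groups called 19 and 54 in the FFPE 3 wk contrasts.

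With each animal left out in turn, 0 to 1 members and 0 to 2 genes were called for FFPE 3 wk against fresh-frozen and 0 to 1 members and 0 to 3 genes for FFPE 3 wk against FFPE 18 h livers. The member was Hgf, called without control 02, which leaves all FFPE 3 wk controls at 0 counts (9.77 and 9.36, adjusted p 0.0407 and 0.0274, values that depend on the prior count and are no bounds). The ranges for FFPE 18 h against fresh-frozen livers were -0.14 to 0.092 for Tsku and -0.40 to 0.00417 for Fst. Those for FFPE 3 wk against fresh-frozen livers were -0.19 to 0.18 for Igf1, -0.37 to 0.31 for Gdf15, -0.37 to 0.070 for Inhbe, -0.41 to 0.081 for Igfbp1, -0.13 to 0.20 for Igfbp2 and -0.42 to 0.53 for Tsku. Those for FFPE 3 wk against FFPE 18 h livers were -0.31 to 0.40 for Gdf15, -0.19 to 0.10 for Igfbp1, -0.048 to 0.28 for Inhbe and -0.30 to 0.62 for Tsku.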

Other observations

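The share of the counts that a gene took differed between kinds of piece in opposite directions for Igf1 and Hgf, whatever the treatment. Igf1 lay between 418 and 711 CPM in the 6 fresh-frozen libraries and between 1751 and 2885 CPM in the 8 FFPE 18 h libraries. Hgf lay between 13.1 and 20.1 CPM in the fresh-frozen libraries and between 1.42 and 5.39 CPM in the FFPE 18 h libraries. The ranges did not overlap for either gene. These levels were scaled within each kind of piece, and fixation, extraction kit and number of sections cannot be told apart.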
